A study of Rattus norvegicus with 14 samples.

Results

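Rapamycin-exposed preneoplastic liver lesions were compared with normal adult liver in male F344 rats, an inbred laboratory strain. The comparison used 8 of the 14 arrays and 6 of the 12 animals: 3 rats with lesions captured after rapamycin, on 5 arrays, and 3 unmanipulated rats, on 3 arrays. It covered all 14497 genes that a probe set with a single gene symbol measured, with the brightest probe set kept for each gene. Liver was fixed in formalin and embedded in paraffin, tissue was cut out of stained sections with a laser, and its RNA was amplified and hybridised to 1-colour Affymetrix whole-transcript rat arrays. The replicate was the animal, and rapamycin animal 3 was measured on 3 arrays, of which a pair shared 1 RNA and the other came from a new laser capture.

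Lesions were raised by the Solt-Farber protocol, in which a carcinogen initiates hepatocytes and a selection step lets resistant ones grow. Diethylnitrosamine (DEN) was injected at 200 mg/kg on day 1, and a 2.5 mg pellet releasing 2-acetylaminofluorene (AAF) over 14 days was implanted on day 14. Partial hepatectomy followed on day 21, when a pellet releasing rapamycin at 2.5 mg/kg per day for 21 days was placed under the skin, and the rats were killed on day 70, after the stated release time had passed. What was captured on that day were lesions that had persisted and that stained for the placental glutathione S-transferase GSTP. The placebo foci (3 rats) shared every step except the drug, and the AAF/PH livers (3 rats) had the AAF pellet on day 1, hepatectomy on day 7 and no DEN, with oval cell regions captured on day 14. Normal rats had none of these steps, so in the comparison with normal liver the drug, the carcinogens, the surgery and the lesion itself cannot be told apart. The age of the normal rats was not among the labels used here.

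GSTP-positive foci are clusters of altered hepatocytes from which rat hepatocellular carcinoma can develop. They are known for high levels of enzymes that conjugate, reduce and export reactive compounds, many of them targets of NRF2, a transcription factor that KEAP1 marks for degradation until electrophiles or oxidants release it and that binds antioxidant response elements in DNA. They are also known for low levels of the cytochrome P450 enzymes that activate carcinogens. Rapamycin inhibits mTOR complex 1, the kinase complex that couples amino acids and growth factors to ribosome production and growth and holds back autophagy.

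The marker that chose the tissue was high in every lesion. The intensity of Gstp1, a linear array signal, was 114, 100.1 and 116 in the normal livers and 3827, 4363 and 1814 in rapamycin animals 1 to 3. Its geometric mean was 28.5-fold higher in the foci, which checks the labels and is no finding, since GSTP staining defined the lesions. Alb, the gene of albumin that defines hepatocytes, read 8291, 8291 and 7868 in normal liver and 7607, 7542 and 6131 in the foci. The 10 measured hepatocyte markers summed to 32601 to 35687 in normal liver and to 30999, 33396 and 21783 in rapamycin animals 1 to 3. Of these markers 1 was called, as lower (10%, against 4.93% of all genes). Their median log2 difference from normal liver was -0.51, or -0.12, -0.14 and -1.07 by animal.

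Rapamycin animal 3 stood apart from the other animals before any gene was considered. The interquartile range of log2 intensity was 1.57 to 1.71 on its 3 arrays and 1.98 to 2.80 on the other 11. The standard deviation of log2 differences between its own arrays was 0.299 for the same RNA and 0.331 to 0.347 for the new capture. That was more than the 0.272 between animals 1 and 2, and less than the 0.699 and 0.781 between animal 3 and those animals. Animal 3 differed by at least 2-fold from animal 1 at 15.4% of genes and from animal 2 at 19.9%, whereas no other pair of animals of 1 group passed 1.66%. The difference followed the level of the gene. In animal 3 the median log2 difference from the normal mean was 0.51 over the 4411 genes with a mean intensity under 16 and -1.50 over the 536 genes between 256 and 1024, and in animals 1 and 2 no level had a median outside -0.26 to 0.10. Quantile normalization narrowed these medians in animal 3 to 0.11 and -0.69. The submitters reported the same animal as an outlier by clustering, not by their other measurements, and averaged its arrays. What set it apart, RNA quality included, was not tested. The results below are therefore given with this animal and, where it matters, without it.

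**Figure D1:**
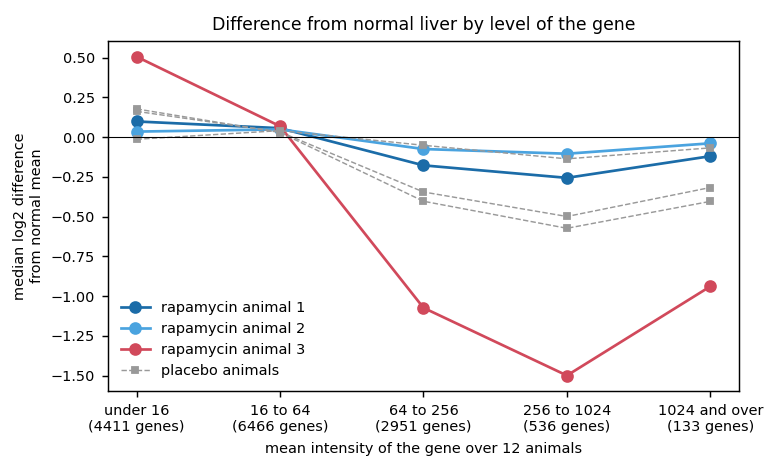
Median log2 difference from the mean of the 3 normal livers (vertical axis) in 5 ranges of mean intensity over the 12 animals (horizontal axis, with the number of genes), as 1 line for each rapamycin and placebo animal. Rapamycin animal 3 runs from 0.51 in the dimmest genes to -1.50 in the range 256 to 1024, and rapamycin animals 1 and 2 stay between -0.26 and 0.10.

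Against normal liver, 948 genes (6.54% of those tested) passed an adjusted p of 0.05 in limma, of which 233 (1.61%) were higher and 715 (4.93%) lower in the rapamycin foci. At least 2-fold differences made up 108 of the higher and 458 of the lower genes. The median log2 difference over all genes was 0.07. Without animal 3 the count was 967 genes (6.67%), but the split moved to 404 higher (2.79%) and 563 lower (3.88%), and 750 genes were called both ways, all with the same sign. Of the 198 calls that needed animal 3, 174 were falls. Animal 3 was the farthest from normal liver in 638 of the 715 falls and the nearest in 148 of the 233 rises. Other single animals also set the count: it was 2055 without rapamycin animal 2, 224 without normal animal 1 and 284 without normal animal 3. Median centring of the arrays moved the median of all genes to -0.10 and the split to 87 higher and 781 lower. The 3 rapamycin animals lay outside the range of the 3 normal animals at 4312 genes (29.7%), above it at 2196 (15.1%) and below it at 2116 (14.6%). Counts of list members called are set below against the 1.61% higher and 4.93% lower of all genes, or 2.79% and 3.88% without animal 3.

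The pair of largest rises, and Nqo1 among the 15 largest, were enzymes that reduce reactive carbonyls or quinones. Akr1b8, an aldo-keto reductase that reduces reactive aldehydes, read 23.1, 23.8 and 26.0 in normal liver and 785, 914 and 179 in rapamycin animals 1 to 3. It rose by 4.38 ± 0.46 on the log2 scale (limma, 3 animals against 3, adjusted p 0.000103), a 20.8-fold difference, and by 5.13 without animal 3. Here and below, ± gives the standard error of the limma fit, whose spread was pooled over the animals of all 4 groups. Akr7a3, an aldehyde reductase known for acting on aflatoxin dialdehyde, read 95.1, 86.9 and 95.3 and 1911, 2109 and 658, a rise of 3.91 ± 0.33 (adjusted p 1.77e-05). Nqo1, the quinone reductase often used to read NRF2 activity, read 29.6, 25.2 and 31.3 and 306, 447 and 77.0, a rise of 2.94 ± 0.45 (adjusted p 0.00192). Animal 3 was the lowest focus for these 3 genes, whose groups do not overlap by the rule that named them. Aldh3a1, an aldehyde dehydrogenase, read 11.5, 11.4 and 10.5 and 42.7, 58.4 and 38.7, so that here animal 3 stood close to animal 1, and rose by 2.05 ± 0.18 (adjusted p 2.46e-05). Ptgr1, which reduces alkenals and prostaglandins, rose by 2.27 ± 0.44 and Akr1b10 by 2.20 ± 0.31. Among the 22 measured genes of carbonyl and quinone reduction, 7 rose (31.8%, against 1.61% of all genes) and 2 fell (9.09%, against 4.93%), with a median log2 difference of 0.27. Without animal 3 the counts were 10 and 2, and Aldh1a1, a retinal dehydrogenase, was among the added rises at 2.24. The exceptions were Aox3 and Akr1c1, both lower in the foci.

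**Figure D2:**
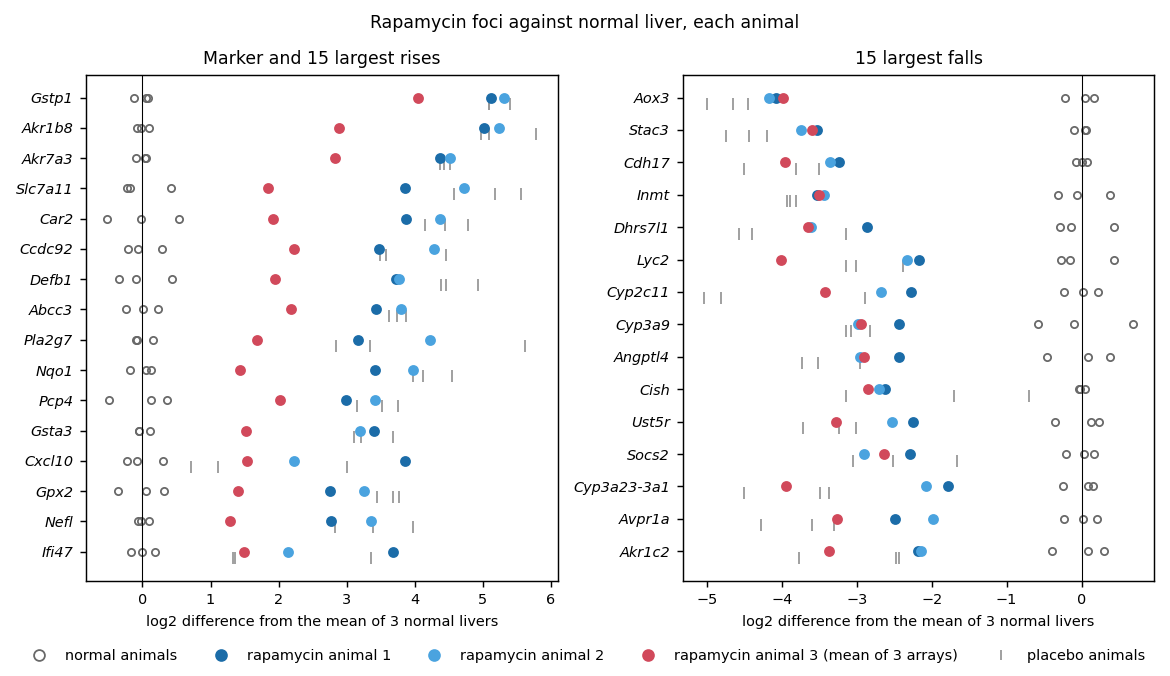
Log2 difference of each animal from the mean of the 3 normal livers for Gstp1 and the 15 largest rises (left) and the 15 largest falls (right). Open circles are normal animals, filled circles rapamycin animals and ticks placebo animals. Rapamycin animal 3 is the lowest focus for most rises, among them Akr1b8 with intensities of 785, 914 and 179 in animals 1 to 3, and lies with animals 1 and 2 for Aox3, Stac3 and Inmt.

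Several genes that supply glutathione rose as well. Slc7a11, the cystine importer that limits glutathione synthesis in many cells, read 6.02, 9.45 and 6.20 in normal liver and 103, 186 and 25.4 in the foci, a rise of 3.48 ± 0.53 (adjusted p 0.00192) and of 4.29 without animal 3. The catalytic and modifier subunits of glutamate-cysteine ligase, the first enzyme of glutathione synthesis, behaved alike. Gclc read 218, 202 and 207 and 1138, 1489 and 437, and Gclm read 186, 222 and 206 and 921, 1136 and 298. They rose by 2.12 ± 0.37 and 1.73 ± 0.39 (adjusted p 0.00473 and 0.0166), and animal 3 stood between normal liver and the other foci for both. Gpx2, a glutathione peroxidase, read 26.5, 35.4 and 42.4 and 231, 324 and 90.6, a rise of 2.47 ± 0.36 (adjusted p 0.00156). Ggt1, the gamma-glutamyl transferase long used to stain rat foci, read 21.3, 23.4 and 22.1 and 95.1, 147 and 57.2 and rose by 2.06 ± 0.29 (adjusted p 0.00115). Of the 20 measured genes of glutathione and thioredoxin supply, 7 rose (35.0%, against 1.61% of all genes) and 2 fell (10.0%, against 4.93%), the falls being Gpx1 at -1.65 ± 0.36 and Ggct at -1.50 ± 0.33. The median was 0.43, and without animal 3 there were 10 rises, with Gsr, the glutathione reductase, added at 1.51.

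Glutathione S-transferases did not move as 1 family. Of 16 measured members Gsta3, an alpha class enzyme, rose beside the marker itself, and Gstm7, of the mu class, fell by 1.72 ± 0.34 (adjusted p 0.00919). That is 12.5% higher, the marker included, and 6.25% lower, against 1.61% and 4.93% of all genes. Gsta3 read 16.0, 14.3 and 14.3 in normal liver and 157, 137 and 42.5 in the foci and rose by 2.70 ± 0.36 (adjusted p 0.000775). Without animal 3, Gstm1, Gstm4 and Mgst2 also passed, at 0.85, 1.20 and 1.03. The family's median was 0.04 with animal 3, 0.55 without it and -0.13 after median centring, so its direction as a whole is not settled. These enzymes, like the aldo-keto reductases, the cytochromes P450 and the class II molecules described below, have close relatives whose RNA the same probes may bind, so a value of 1 member can hold signal from another. Transcripts of the regulators themselves did not pass the test. Nfe2l2, which encodes NRF2, read 314, 322 and 384 in normal liver and 263, 222 and 65.4 in the foci (log2 difference -1.11 ± 0.39, adjusted p 0.102), and Keap1 differed by -0.05 ± 0.24 (adjusted p 0.884).

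The promoters of the marker and of the 3 among the 15 largest rises that hold the core of the antioxidant response element, TGACNNNGC on either strand, are shown because several genes above are known targets of such elements. Each is a RefSeq window of 300 bases on GRCr8 that starts 250 bases before the annotated start of the gene, written 5′ to 3′ on the gene's strand with the core in capitals, and of the 2 windows of Gsta3 the one with the core is shown. Gstp1 lies on the minus strand at chr1:210769656-210769955 with the core at -61, Gsta3 on the plus strand at chr9:31154739-31155038 with the core at -17, Cxcl10 on the plus strand at chr14:15988816-15989115 with the core at -98, and Gpx2 on the minus strand at chr6:101229984-101230283 with the core at -13.
Gstp1: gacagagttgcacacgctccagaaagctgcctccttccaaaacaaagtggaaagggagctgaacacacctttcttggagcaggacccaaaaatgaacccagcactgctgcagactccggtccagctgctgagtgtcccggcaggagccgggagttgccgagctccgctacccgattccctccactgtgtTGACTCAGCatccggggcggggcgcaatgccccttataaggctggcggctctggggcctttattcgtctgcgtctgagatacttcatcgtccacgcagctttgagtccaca
Gsta3: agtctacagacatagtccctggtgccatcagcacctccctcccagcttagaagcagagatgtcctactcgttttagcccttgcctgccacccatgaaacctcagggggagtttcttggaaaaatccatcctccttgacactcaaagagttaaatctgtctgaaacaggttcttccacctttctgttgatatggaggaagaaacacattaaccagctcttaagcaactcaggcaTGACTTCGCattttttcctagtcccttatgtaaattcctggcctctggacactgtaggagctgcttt
Cxcl10: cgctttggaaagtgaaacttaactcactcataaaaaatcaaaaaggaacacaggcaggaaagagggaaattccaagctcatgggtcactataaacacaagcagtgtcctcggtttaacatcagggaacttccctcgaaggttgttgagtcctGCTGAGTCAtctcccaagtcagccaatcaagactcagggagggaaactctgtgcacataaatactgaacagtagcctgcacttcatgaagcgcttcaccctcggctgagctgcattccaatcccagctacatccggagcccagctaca
Gpx2: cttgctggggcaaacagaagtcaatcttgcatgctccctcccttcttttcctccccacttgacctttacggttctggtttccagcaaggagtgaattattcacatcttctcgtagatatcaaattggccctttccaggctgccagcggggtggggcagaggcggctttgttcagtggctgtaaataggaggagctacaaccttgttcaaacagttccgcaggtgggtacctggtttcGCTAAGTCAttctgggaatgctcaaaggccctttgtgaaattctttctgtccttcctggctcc
The core was in the window of 13.1% of the 27457 genes of the table and of 14.2% of the 11945 measured genes with a window. Among genes called higher it was in 38 of 181 (21.0%), among genes called lower in 102 of 595 (17.1%), and among the 15 largest rises in 3 of the 11 with a window. The windows of Akr1b8, Akr7a3, Slc7a11 and Nqo1 do not hold these letters. A match is a run of letters and no evidence of binding, and elements farther from the start lie outside these windows.

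Other large rises came from genes of varied function. Car2, a carbonic anhydrase, read 74.1, 35.7 and 50.3 in normal liver and 748, 1059 and 192 in the foci, a rise of 3.39 ± 0.54 (adjusted p 0.00268). Defb1, a beta-defensin, read 11.8, 20.2 and 13.9 and 196, 202 and 57.5 and rose by 3.14 ± 0.39 (adjusted p 0.000453). Ccdc92 rose by 3.33 ± 0.39, and Pla2g7, which inactivates platelet-activating factor, rose by 3.02 ± 0.61 with a wide spread, from 90.5, 188 and 32.5 in animals 1 to 3 against 9.52, 11.3 and 9.62. A pair of genes best known from neurons was among them: Pcp4, a calmodulin regulator, rose by 2.81 ± 0.31 and Nefl, the light neurofilament chain, by 2.47 ± 0.40. Animal 3 was the lowest focus for each of these 6 genes.

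Transporters of the hepatocyte surface moved in both directions. Abcc3, which pumps conjugates from hepatocytes into blood, read 27.4, 38.1 and 32.8 in normal liver and 349, 451 and 148 in the foci, a rise of 3.14 ± 0.31 (adjusted p 5.68e-05). Abcb1b, a multidrug exporter, rose by 1.40 ± 0.34 and Abcc4 by 0.82 ± 0.17. Against them, the organic anion importer Slco1a4 read 329, 473 and 286 and 91.8, 83.5 and 44.3 and fell by 2.34 ± 0.27 (adjusted p 0.000228), and its relative Slco1b2 fell by 1.90 ± 0.32. Of the 19 measured exporters and importers 3 rose and 8 fell (15.8% and 42.1%, against 1.61% and 4.93% of all genes) with a median of -0.31, and without animal 3 the counts were 4 and 7 with a median of 0.04. Slc10a1, the bile acid importer, fell with animal 3 at -1.22 ± 0.34 and did not pass without it. Among conjugating enzymes Ugdh, which makes the sugar donor of glucuronidation, rose by 1.45 ± 0.41, and the sulfotransferases Sult1c3, Sult2a1 and Sult1c2 fell by 2.41, 2.10 and 1.94, out of 14 measured genes of glucuronidation and sulfation (7.14% called higher and 21.4% lower) with a median of -0.56. Neither count changed without animal 3.

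Several of the largest falls were of like size in all 3 animals, animal 3 included. Aox3, an aldehyde oxidase, read 539, 413 and 497 in normal liver and 28.4, 26.7 and 30.3 in the foci, a fall of 4.08 ± 0.22 (adjusted p 1.2e-07), or 16.9-fold. Stac3, whose protein couples excitation to contraction in muscle, read 403, 363 and 400.1 and 33.4, 28.8 and 31.9 and fell by 3.63 ± 0.18 (adjusted p 1.1e-07). Inmt, an indole methyltransferase, read 182, 246 and 152 and 16.4, 17.4 and 16.6 and fell by 3.50 ± 0.19 (adjusted p 1.2e-07). In these 3 genes the foci lay within a narrow band. Cdh17, the liver-intestine cadherin, read 401, 422 and 443 and 44.7, 41.2 and 27.2 and fell by 3.52 ± 0.32 (adjusted p 2.46e-05). Dhrs7l1, of the short-chain dehydrogenase family, fell by 3.38 ± 0.44, Ust5r by 2.68 ± 0.27 and Lyc2, a lysozyme, by 2.84 ± 0.41. Lyc2 was the fall of this group that leaned on animal 3, at 41.5, 37.2 and 11.6 in animals 1 to 3, and stood at -2.25 ± 0.27 without it. Angptl4, an inhibitor of lipoprotein lipase, read 463, 258 and 378 and 65.6, 46.0 and 47.4, a fall of 2.77 ± 0.32 (adjusted p 0.000239). Among 20 measured markers of foci and liver tumours, 8 rose and 2 fell (40.0% and 10.0%, against 1.61% and 4.93% of all genes), the latter being Cdh17 and Spink1, with a median of 0.51 and the same counts without animal 3. The 8 rises include Gstp1, whose staining chose the tissue. That list was also written with earlier results on these lesions in view and is no independent evidence of direction.

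Cish and Socs2 were among the 15 largest falls, and both are known targets of growth hormone in liver. The hormone acts through its receptor GHR and the factor STAT5b, which switches on Cish and Socs2, feedback inhibitors of the same receptor, and patterns the male P450 genes. Cish read 239, 238 and 252 in normal liver and 39.2, 37.2 and 33.5 in the foci, a fall of 2.73 ± 0.40 (adjusted p 0.00158). Socs2 read 273, 323 and 355 and 64.3, 42.2 and 50.8, a fall of 2.61 ± 0.29 (adjusted p 0.000151). The foci lay close together for both genes, and the values without animal 3 were -2.67 and -2.60. Cyp2c11, the main male-specific P450, read 1729, 1999 and 1455 and 352, 267 and 159 and fell by 2.80 ± 0.43 (adjusted p 0.00211). Cyp2c12, its female-specific counterpart, read 83.6, 106 and 90.0 and 449, 642 and 107, so that animals 1 and 2 were high and animal 3 was near normal liver. It did not pass with all animals (log2 difference 1.75 ± 0.51, adjusted p 0.0542) and was called without animal 3 at 2.53 ± 0.31 (adjusted p 3.71e-05). Ghr itself read 687, 648 and 619 and 361, 348 and 139.6 and fell by 1.32 ± 0.30 (adjusted p 0.0172), and Igf1, the growth factor that the hormone releases from liver, fell by 1.03 ± 0.26 (adjusted p 0.0288). Stat5b fell by 0.96 ± 0.24 with animal 3 and did not pass without it at -0.68. Ghr, Igf1 and Stat5b were singled out after their values were seen, and no list of growth hormone targets was counted, so these genes stand as single values.

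The promoter of Cish is shown because it holds 4 matches to the STAT5-type palindrome TTCNNNGAA, a motif searched for after the values of Cish and Socs2 had been seen. On the plus strand of GRCr8 at chr8:116850719-116851018 its matches begin at -241, -230, -136 and -119 and stand in capitals.
Cish: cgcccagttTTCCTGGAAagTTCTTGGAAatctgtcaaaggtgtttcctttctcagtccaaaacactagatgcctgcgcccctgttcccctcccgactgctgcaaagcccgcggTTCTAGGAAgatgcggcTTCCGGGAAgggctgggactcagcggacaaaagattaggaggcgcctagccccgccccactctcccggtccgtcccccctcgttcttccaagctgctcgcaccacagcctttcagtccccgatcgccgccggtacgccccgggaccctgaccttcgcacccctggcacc
The palindrome reads the same on both strands, and it was in the window of 9.39% of all genes of the table, 7.84% of measured genes and 7.23% of genes called lower. Of the 15 largest falls 13 had a window, and those of Cish and Akr1c2 held the palindrome. Socs2 and Cdh17 had no window, so their promoters were not searched. The palindrome was no rarer among rises, at 8.29% of genes called higher and 3 of the 11 with a window among the 15 largest rises. Akr1c2, an aldo-keto reductase of steroid metabolism, read 1217, 748 and 1048 in normal liver and 217, 223 and 94.7 in the foci and fell by 2.57 ± 0.38 (adjusted p 0.00165).

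Cytochrome P450 genes as a group were lower. Of 33 measured members of the drug and fatty acid metabolising families 18 fell (54.5%, against 4.93% of all genes) and none passed as a rise, with a median of -1.09. Without animal 3, 16 fell, Cyp2c12 rose and the median was -0.68. Cyp3a9 read 154, 266 and 110.0 in normal liver and 30.4, 20.9 and 21.4 in the foci and fell by 2.79 ± 0.26 (adjusted p 3.99e-05). Cyp3a23-3a1 read 987, 941 and 747 and 257, 209 and 57.6, a fall of 2.60 ± 0.45 that narrowed to -1.93 without animal 3. Cyp1a2, which activates aromatic amines such as AAF, read 394, 524 and 493 and 119.8, 129 and 92.2 and fell by 2.05 ± 0.24 (adjusted p 0.000246). Cyp2e1, which activates nitrosamines such as DEN, fell by 1.41 ± 0.25. Avpr1a, the vasopressin receptor of hepatocytes, was no member of the group and fell to a like extent, from 567, 418 and 496 to 86.9, 124 and 51.0, by 2.58 ± 0.32 (adjusted p 0.000448).

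Part of the genes of the urea cycle, amino acid breakdown and bile acid synthesis fell. Of 29 measured genes of the urea cycle and amino acid breakdown 13 fell (44.8%, against 4.93% of all genes) and none rose, with a median of -1.10. Oat, ornithine aminotransferase, read 379, 358 and 343 in normal liver and 73.8, 86.1 and 65.2 in the foci and fell by 2.27 ± 0.28 (adjusted p 0.000402). Gnmt, which regulates methyl group supply, read 787, 648 and 677 and 214, 237 and 152 and fell by 1.83 ± 0.23 (adjusted p 0.000456). Of 18 genes of bile acid synthesis and conjugation 8 fell (44.4%) and 1 rose (5.56%, against 1.61% of all genes), with a median of -1.00. Slc27a5, the ligase that activates bile acids for conjugation, read 949.8, 687 and 880.5 and 187, 149 and 119 and fell by 2.48 ± 0.25 (adjusted p 7.66e-05), and Cyp8b1, the sterol 12-alpha-hydroxylase, fell by 1.39 ± 0.20. The rise was Nr0b2 at 1.58 ± 0.39, the nuclear receptor SHP that represses bile acid synthesis. Median differences of the urea cycle list from normal liver were -0.79, -0.48 and -1.86 in animals 1 to 3. Without animal 3, the urea cycle list had 11 falls and a median of -0.60, and the bile acid list kept 8 falls and 1 rise.

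**Figure D3:**
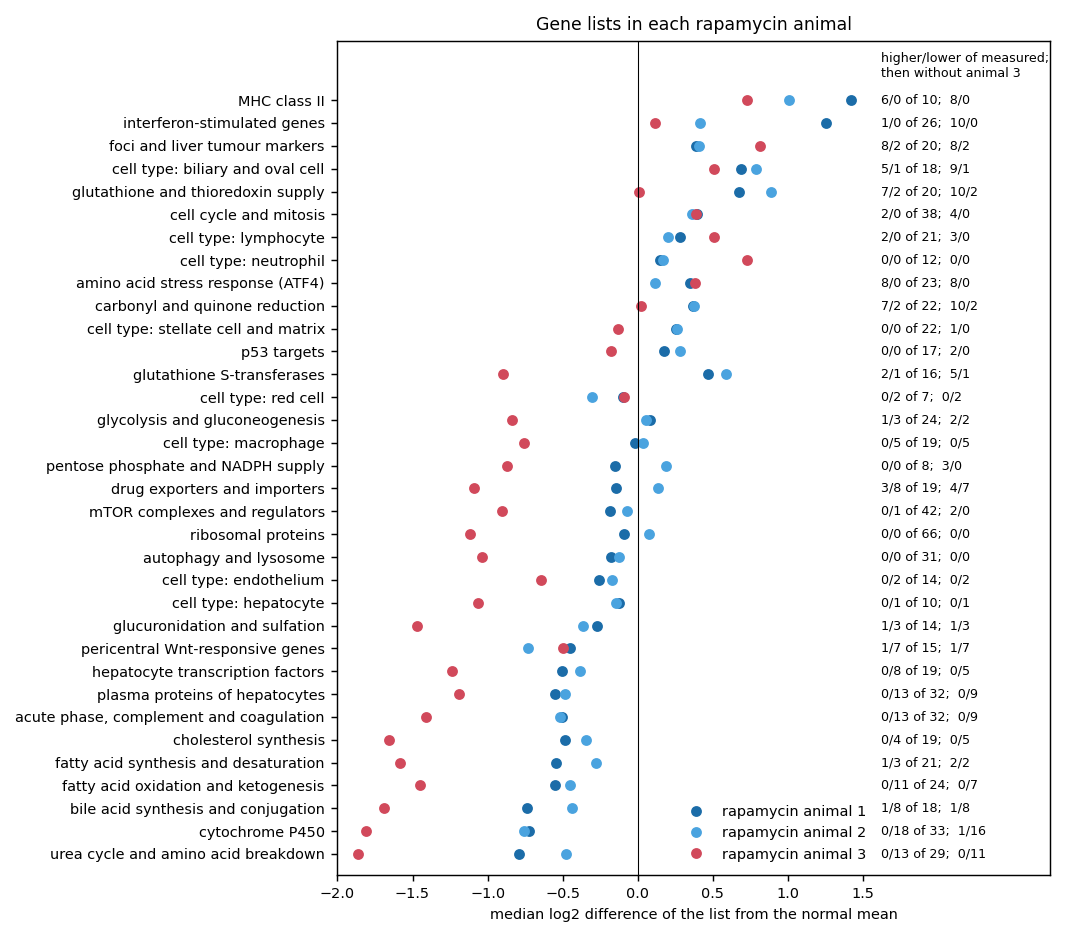
Median log2 difference from the normal mean of each of 34 gene lists (rows) in rapamycin animals 1, 2 and 3 (points), with the number of members called higher and lower of those measured, and the same counts without animal 3, at the right. Animal 3 lies lowest in most lists of hepatocyte function, for example -1.86 in the urea cycle list against -0.79 and -0.48 in animals 1 and 2.

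Part of the lipid genes fell. Of 24 genes of fatty acid oxidation and ketogenesis 11 fell (45.8%, against 4.93% of all genes) and none rose (median -0.91), and 7 fell without animal 3 (median -0.51). Pdk4, the kinase that spares glucose by closing pyruvate dehydrogenase, read 494, 378 and 336 in normal liver and 106, 88.9 and 55.2 in the foci and fell by 2.31 ± 0.34 (adjusted p 0.00167). Of 19 cholesterol synthesis genes 4 fell (21.1%, median -0.80), and 5 without animal 3. Of 21 genes of fatty acid synthesis and desaturation 3 fell (14.3%) and 1, Scd2, rose by 1.38 ± 0.33 (4.76%, against 1.61% of all genes, median -0.83), with 2 falls and 2 rises without animal 3. Among 24 genes of glycolysis and gluconeogenesis, Pklr, the pyruvate kinase of hepatocytes, fell by 1.63 ± 0.30, as did Fbp1 and Pc at -1.17 ± 0.28 and -0.93 ± 0.25, and Hk3 rose by 0.92 ± 0.21, which makes 12.5% lower and 4.17% higher. The median of that list was -0.11 and turned to 0.18 without animal 3 and to 0.10 after quantile normalization. None of 8 genes of the pentose phosphate pathway and NADPH supply passed with all animals, and Taldo1, Tkt and Me1 were called higher without animal 3, at 1.01, 0.84 and 1.19.

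Among secreted products and regulators of hepatocytes, most members did not pass and those that did were lower. Among 32 measured plasma proteins 13 fell (40.6%, against 4.93% of all genes), none rose and 19 did not pass (median -0.78), among them Apoa4, an apolipoprotein, from 1508, 1079 and 1226 in normal liver to 492, 471 and 444 in the foci, by 1.43 ± 0.19 (adjusted p 0.000752). Among 32 genes of the acute phase, complement and coagulation the counts were also 13, 0 and 19 (median -0.80), for example C6 by 1.80 ± 0.35 and Mbl2, a lectin of innate defence, by 1.46 ± 0.25. Without animal 3 each of these lists had 9 falls (28.1%, against 3.88% of all genes). Of 19 hepatocyte transcription factors 8 fell (42.1%), none rose and 11 did not pass (median -0.67), and 5 fell without animal 3 (26.3%). Onecut1, also called HNF6, read 374, 258 and 387 and 97.4, 84.3 and 89.6 and fell by 1.89 ± 0.26 (adjusted p 0.00115), and Foxa1 read 97.7, 89.0 and 92.3 and 39.0, 43.4 and 30.3 and fell by 1.32 ± 0.19 (adjusted p 0.00156). Hnf4a, a master regulator of the hepatocyte, read 554, 489 and 608 and 495, 480.2 and 259, so that animal 3 alone lay far below normal liver, and did not pass (log2 difference -0.47 ± 0.25, adjusted p 0.233).

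Part of the genes that Wnt signals maintain around the central vein fell. Of 15 measured members 7 fell (46.7%, against 4.93% of all genes) and 1 rose (6.67%, against 1.61%), with a median of -0.64 and unchanged counts without animal 3. Gulo, the last enzyme of vitamin C synthesis, read 938, 793 and 914 in normal liver and 245, 276 and 127 in the foci and fell by 2.10 ± 0.27 (adjusted p 0.000469). Notum, an enzyme that inactivates Wnt ligands and is a Wnt target, read 100.4, 70.3 and 95.7 and 37.0, 31.4 and 35.8, with all foci close together, and fell by 1.34 ± 0.17 (adjusted p 0.000553). Rhbg, an ammonia channel, was the member that rose, by 1.39 ± 0.26.

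Amino acid synthesis genes that ATF4 induces rose in small steps. ATF4 is the transcription factor of the amino acid stress response, and mTOR complex 1 is known to raise its translation. Of 23 measured targets 8 rose (34.8%, against 1.61% of all genes) and none fell, with a median of 0.28. The enzymes of serine synthesis Phgdh and Psat1 rose by 1.30 ± 0.18 and 1.53 ± 0.30 (adjusted p 0.00121 and 0.00919). Phgdh read 25.2, 29.2 and 36.1 in normal liver and 65.0, 71.5 and 84.7 in the foci, so that animal 3 was the highest focus, against its direction at most rises. Pycr1, which makes proline, read 17.4, 19.7 and 24.5 and 52.6, 63.4 and 41.2 and rose by 1.34 ± 0.21 (adjusted p 0.00252), and Asns, asparagine synthetase, rose by 0.98 ± 0.18. Without animal 3 the count stayed at 8, of which Ddit4 was new and Slc7a1 was gone. Under median centring 5 rose and 1 fell.

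Of 42 measured genes of the mTOR complexes, the drug's own pathway, and their regulators, none rose and 1, Ulk2, a kinase that starts autophagy, fell by 0.90 ± 0.24 (adjusted p 0.0385). That is 0% and 2.38%, against 1.61% and 4.93% of all genes, so in a list of this size the counts are near the background, and the median was -0.35. Without animal 3 Ulk2 did not pass, and Sesn3 and Ddit4, both inhibitors upstream of the complex, were called higher at 0.84 and 1.09. Mtor read 84.6, 79.5 and 88.9 in normal liver and 87.2, 84.0 and 42.9 in the foci (log2 difference -0.31 ± 0.25, adjusted p 0.403), and its difference without animal 3 was 0.02. None of 31 autophagy and lysosome genes passed (median -0.39), with or without animal 3. None of 66 ribosomal protein genes passed either. Their median was -0.36 with all animals and -0.02 without animal 3, and by animal it was -0.09, 0.08 and -1.11, so that the median with all animals came from animal 3. These counts concern transcripts, and rapamycin acts mainly on phosphorylation and translation, which the arrays do not measure.

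Of 38 measured genes of the cell cycle and mitosis 2 rose (5.26%, against 1.61% of all genes) and none fell, with a median of 0.41 and medians of 0.40, 0.36 and 0.39 in animals 1 to 3. Every focus lay above every normal liver at 21 of the 38, against 15.1% of all genes, and none lay wholly below. Ccnb1 and Ccnb2, the B-type cyclins of mitosis, read 10.6, 8.88 and 8.54 and 25.4, 27.1 and 26.0 in normal liver and 22.0, 23.0 and 13.4 and 54.3, 49.9 and 43.7 in the foci. They rose by 1.03 ± 0.25 and 0.91 ± 0.18 (adjusted p 0.0267 and 0.00873), and without animal 3 Ccnd1 and Rrm2 were added at 1.13 and 1.90. A mean log2 intensity of at least 5 was reached by 10 of the 38, and the part of the shift of dim genes in animal 3 (median 0.51, above) in its values was not tested. None of 17 p53 targets passed with all animals (median 0.18), and Tp53inp1 and Fas did without animal 3, at 0.80 and 0.91.

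Class II molecules, which present antigen to helper T cells, rose in the foci. Cd74, the invariant chain that guides them, read 164, 265 and 273 in normal liver and 1424, 1249 and 472 in rapamycin animals 1 to 3, and rose by 2.05 ± 0.42 (adjusted p 0.0107). RT1-Bb read 39.3, 42.2 and 43.8 and 201, 179.6 and 95.9 and rose by 1.86 ± 0.30 (adjusted p 0.003), RT1-Ba rose by 1.70 ± 0.29 and RT1-Da by 1.82 ± 0.39. Ciita, the regulator that switches class II genes on, rose by 0.84 ± 0.23 (adjusted p 0.0437). Of 10 measured genes 6 rose (60.0%, against 1.61% of all genes) and none fell, with a median of 0.99, and 8 rose without animal 3 (80.0%, against 2.79%). Their summed intensity ranged from 574 to 773 in normal liver, from 1192 to 2980 in the rapamycin foci and from 1635 to 3915 in the placebo foci. Lymphocyte markers summed to 348 to 408 in normal liver and 448 to 594 in the rapamycin foci, with Prf1 and Nkg7, genes of cytotoxic cells, called higher among 21, at 0.66 ± 0.16 and 0.81 ± 0.22, and the other 19 not called, which is 9.52% against 1.61% of all genes. After quantile normalization or median centring 0 of the 21 were called. In captured tissue fewer or more cells of a type and less or more RNA per cell cannot be told apart, and the part of such cells in the class II result was not tested.

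Interferon-inducible genes differed widely between the rapamycin animals. Cxcl10, a chemokine that draws activated T cells, read 21.9, 31.7 and 24.2 in normal liver and 372, 120.3 and 74.1 in rapamycin animals 1 to 3, and rose by 2.54 ± 0.55 (adjusted p 0.0142). Ifi47, a GTPase that interferon gamma induces, read 36.3, 41.4 and 32.5 and 467, 161 and 102 and rose by 2.43 ± 0.53 (adjusted p 0.0153). Ubd, a ubiquitin-like protein induced by the same cytokine, read 186, 148 and 175 and 1613, 703 and 308 and rose by 2.06 ± 0.49 (adjusted p 0.0225). Animal 1 was the highest and animal 3 the lowest for all 3 genes. Over 26 interferon-stimulated genes, of which Ifi47 and Ubd are no members, the median difference from normal liver was 1.25, 0.42 and 0.12 in animals 1 to 3. Only Cxcl10 passed with all animals (3.85%, against 1.61% of all genes), and 10 genes passed without animal 3 (38.5%, against 2.79%), among them Gbp2 at 2.20 and Psmb9, a subunit of the immunoproteasome, at 1.85. Quantile normalization gave 5 rises.

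**Figure D4:**
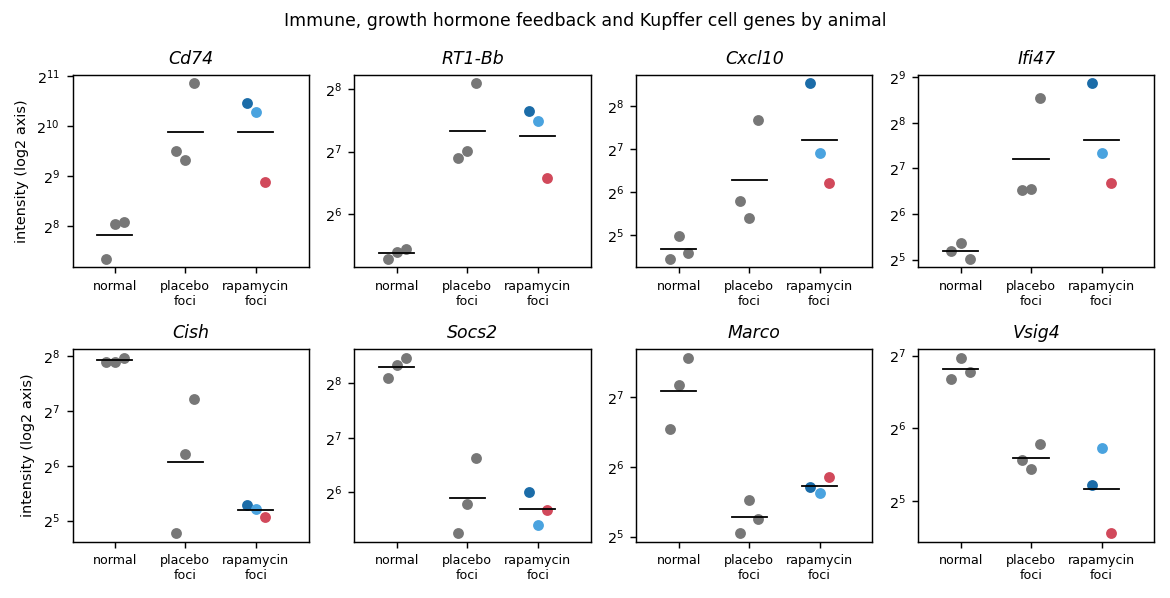
Intensity on a log2 axis of 8 genes in each animal of normal liver, placebo foci and rapamycin foci, with bars at the geometric mean and rapamycin animals in colour (1 dark blue, 2 light blue, 3 red). All foci lie above normal liver for Cd74, RT1-Bb, Cxcl10 and Ifi47 and below it for Cish, Socs2, Marco and Vsig4.

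Several Kupffer cell markers fell. Marco, a scavenger receptor of resident liver macrophages, read 93.0, 145 and 189.6 in normal liver and 52.4, 49.2 and 58.0 in the foci and fell by 1.37 ± 0.23 (adjusted p 0.0042). Vsig4, a complement receptor of the same cells, read 102, 126 and 109.8 and 37.2, 52.8 and 23.6 and fell by 1.64 ± 0.34 (adjusted p 0.0111). Cd163, Clec4f and Mrc1 also fell, at -1.03 ± 0.19, -0.97 ± 0.25 and -0.90 ± 0.19, and all 5 falls held without animal 3. The other 14 of the 19 measured macrophage markers did not pass (26.3% lower, against 4.93% of all genes), and the summed intensity was 1783 to 2174 in normal liver and 1042 to 1901 in the foci. Haemoglobin chains fell as well: Hbb read 958, 467 and 1092 and 326, 355 and 263 and fell by 1.33 ± 0.26, and Hbb-b1 fell by 1.25 ± 0.24. They were 2 of 7 measured red cell markers (28.6%, against 4.93% of all genes), with a list median of -0.09. The other 5 did not pass, among them Alas2 at -0.33 and Hbe1 at 0.35. All 7, both chains included, summed to 1038 to 1578 in normal liver and 511 to 629 in the foci. Of 14 endothelial markers Kdr, a VEGF receptor, and Fcgr2b fell by 0.96 and 1.18 (14.3%, against 4.93% of all genes), and the other 12 did not pass. Whether less blood and fewer sinusoidal cells in the captured tissue took part in these falls was not tested.

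Biliary and progenitor markers rose in part. Krt19, a keratin of bile ducts, read 16.9, 22.5 and 25.4 in normal liver and 78.3, 110.1 and 44.2 in the foci and rose by 1.77 ± 0.45 (adjusted p 0.032). Cd24 and Sox4, both active in progenitor cells, rose by 1.40 ± 0.30 and 1.03 ± 0.25 (adjusted p 0.0142 and 0.0276). Of 18 measured markers of biliary and oval cells 5 rose (27.8%, against 1.61% of all genes) and 1, Onecut1, fell (5.56%, against 4.93%). Without animal 3, 9 rose, Epcam among them at 0.93. Median centring left 0 rises. Afp, the fetal albumin of oval cells and many tumours, was no higher than in normal liver, at 47.1, 60.6 and 38.4 in the foci against 49.8, 69.2 and 63.8. None of 22 stellate cell and matrix genes and none of 12 neutrophil genes passed with all animals.

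A few genes put animal 3 on a course of its own. A2m, an acute phase protease inhibitor of the rat, read 19.1, 29.0 and 23.1 in normal liver, 35.3, 23.4 and 189.8 in rapamycin animals 1 to 3 and 155, 196 and 225 on the 3 arrays of animal 3. Among normal livers and foci it was high in that animal alone, and it did not pass over the group (log2 difference 1.21 ± 0.61, adjusted p 0.214). Gsta4, which conjugates lipid peroxidation products, read 381, 299 and 337 in normal liver and 529, 580.5 and 103 in the foci, so that animals 1 and 2 were above normal liver and animal 3 below it. Txn1, the cytosolic thioredoxin, followed the same order at 2165, 2199 and 481 against 1646, 1474 and 1459. Fads2, the delta-6 desaturase, stayed near the normal 1453, 1597 and 1418 in animals 1 and 2 and was low in animal 3, at 1328, 1407 and 308. The ribosomal gene Rpl30 read 1370.4, 882 and 1138 in normal liver and 892, 921 and 209 in the foci. None of these 5 passed with all animals. These genes and Akr1b8, Cyp2c12 and Ptgr1 were chosen by the distance of animal 3 from the others, so that distance is a description. Ptgr1 read 171, 119.6 and 151 in normal liver and 1074, 1254 and 257 in the foci.

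The comparison with placebo foci asks whether an earlier course of rapamycin leaves a difference in lesions of the same kind. It gave 0 calls in limma (0% of genes), and 483 genes (3.33%) had an unadjusted p under 0.05. With weights estimated for each animal, 541 genes (3.73%) were called, 436 of them higher after rapamycin. The weights were 4.03, 1.00 and 0.110 in rapamycin animals 1 to 3, so the rapamycin mean in that fit leaned on animal 1. The median gene had a 95% interval of 0.459 on the log2 scale to either side, so differences of that size are within the error for a typical gene, and a missed threshold does not show that the lesions were alike. Without rapamycin animal 3, 3 genes passed and all were higher after rapamycin: Cyp2a2 by 1.38, Cyp3a23-3a1 by 1.86 and Inhbe, an activin subunit of hepatocytes, by 1.17. Over genes of mean intensity 256 to 1024, median differences from normal liver were -0.50, -0.57 and -0.14 in placebo animals 1 to 3. They were -0.26 and -0.10 in rapamycin animals 1 and 2. The part of this shift in differences between the kinds of foci was not tested. Without placebo animal 3, Cyp4a3 passed at 1.55 and Dbp, a clock output factor, at -1.67. Placebo and rapamycin foci are set below against the same normal livers, so the 2 differences share those animals.

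Among the genes with the largest moderated t in either direction between the kinds of foci, none passed with all animals. Moderated t is the difference relative to its standard error in limma. Cyp4a3, a fatty acid hydroxylase and PPAR alpha target, read 1921, 2269 and 1984 in normal liver, 263, 357 and 497 in placebo foci and 973, 780.2 and 953 in rapamycin foci. Rapamycin minus placebo was 1.32 (95% interval 0.84 to 1.80), at an adjusted p of 0.512. Atf5, a transcription factor related to ATF4, read 987, 1007 and 1137, 293, 417 and 394 and 716, 744 and 699, with a difference of 0.98 (95% interval 0.60 to 1.37). The animals of the groups of foci did not overlap for either gene, as at 6.04% of all genes. Both genes were chosen by this same contrast, so that separation is a description. Inhbe differed by 0.96 (95% interval 0.52 to 1.40), Stac3 by 0.83 (95% interval 0.44 to 1.23) and Apoa4 by 0.79 (95% interval 0.38 to 1.20). In the other direction, Mmp12, a macrophage elastase, read 12.4, 12.9 and 13.3 in normal liver, 56.7, 46.2 and 66.7 in placebo foci and 33.1, 28.0 and 20.4 in rapamycin foci, with a difference of -1.07 (95% interval -1.55 to -0.59). Tceal9 differed by -1.53 (95% interval -2.24 to -0.82), Abcc4 by -0.76 (95% interval -1.13 to -0.39), Aldh3a1 by -0.74 (95% interval -1.13 to -0.35) and Tes, a focal adhesion protein, by -1.18 (95% interval -1.82 to -0.55). All 10 were chosen by the moderated t of this contrast, at unadjusted p from 3.53e-05 to 0.00128 in limma, and are given as values. Genes with larger differences but wider intervals are not among them.

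For the detoxifying genes described above no difference from placebo foci passed, and the values moved toward 0 without rapamycin animal 3. Slc7a11 read 257, 169 and 334 in placebo foci and differed by -1.63 (95% interval -2.77 to -0.50), Nqo1 read 496, 447 and 669 and differed by -1.27 (95% interval -2.23 to -0.31), and Gpx2 by -1.16 (95% interval -1.93 to -0.39). Rapamycin animal 3 was the lowest focus for each, and all had an adjusted p of 0.985. Without it the differences and 95% intervals were -0.82 (-1.49 to -0.15) for Slc7a11, -0.52 (-0.97 to -0.06) for Nqo1 and -0.63 (-1.13 to -0.13) for Gpx2, at adjusted p from 0.641 to 0.76. Akr7a3 differed by -0.53 (95% interval -1.23 to 0.17) and Gstp1 by -0.37 (95% interval -0.95 to 0.21), and without animal 3 by 0.01 (-0.36 to 0.37) and 0.02 (-0.37 to 0.41), all intervals including 0. The median difference over the carbonyl and quinone list was -0.34 with all animals and 0.06 without animal 3, and over the glutathione supply list -0.43 and -0.10, with 0 members called in either case. The ribosomal protein list had a median of -0.38 with all animals and -0.01 without animal 3. Other lists moved away from 0 without animal 3. The cytochrome P450 median went from 0.29 to 0.60, with 2 members called higher. Medians went from 0.47 to 0.82 for interferon-stimulated genes and from 0.29 to 0.58 for plasma proteins, with 0 called. The interferon-stimulated genes were uneven between animals. They summed to 4983 and 2937 in rapamycin animals 1 and 2 and to 2028, 1848 and 3687 in placebo animals 1 to 3. Cyp2c11 read 52.0, 230.0 and 60.8 in placebo foci and differed by 1.45 (95% interval 0.53 to 2.38). Cish read 27.4, 74.2 and 149 with a difference of -0.88 (95% interval -1.74 to -0.01). For Cd74 the difference was -0.01 (95% interval -0.90 to 0.88) and for Marco 0.45 (95% interval -0.05 to 0.95).

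**Figure D5:**
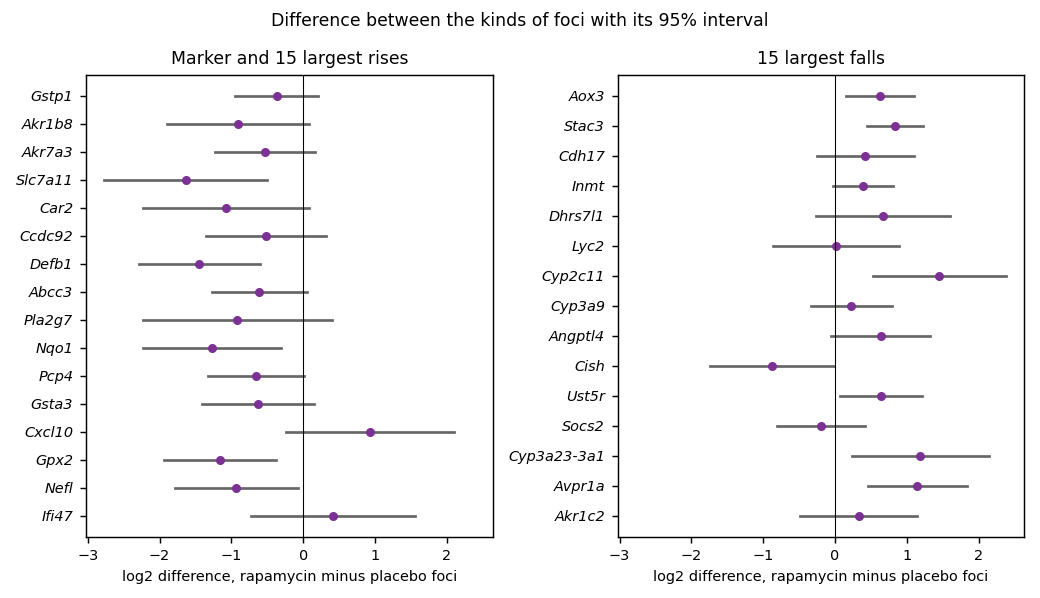
Log2 difference of rapamycin foci minus placebo foci (points) with its 95% interval from limma (lines) for Gstp1 and the 15 largest rises (left) and the 15 largest falls (right) against normal liver. Intervals of Slc7a11, Defb1, Nqo1, Gpx2, Nefl and Cish lie below 0 and those of Aox3, Stac3, Cyp2c11, Ust5r, Cyp3a23-3a1 and Avpr1a above 0, but none of the genes passed adjustment over all genes.

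Against AAF/PH liver, where oval cells proliferate, 580 genes (4.0%) were called in limma, 310 (2.14%) higher and 270 (1.86%) lower in the rapamycin foci. Without rapamycin animal 3 the count was 2056, and without AAF/PH animal 3 it was 295. Leaving out rapamycin animal 1 gave 337 and leaving out AAF/PH animal 2 gave 358. The largest rises were hepatocyte genes that were low in AAF/PH liver. Serpina3c, a secreted protease inhibitor, read 187, 25.7 and 61.6 in AAF/PH liver and 2551, 2652 and 1531 in the foci, a rise of 5.03 ± 0.48 (adjusted p 4.23e-05). Fads2 rose by 4.89 ± 0.41, Scd, the stearoyl-CoA desaturase, by 4.39 ± 0.44, Fads1 by 4.31 ± 0.38 and Cyp2c11 by 4.21 ± 0.43. Of these, Serpina3c, Scd, Fads1 and Fads2 did not pass the test against normal liver, at log2 differences of -0.85, -0.18, -0.93 and -0.84. Of the largest falls, Pln, phospholamban, read 207, 223 and 259.6 in AAF/PH liver and 16.9, 13.7 and 25.5 in the foci and fell by 3.66 ± 0.25 (adjusted p 3.73e-06). Abcb1b fell by 3.35 ± 0.34, and the log2 differences of Afp, Npy, which encodes neuropeptide Y, and Tagln, a smooth muscle actin-binding protein, were -3.23 ± 0.36, -2.97 ± 0.57 and -2.90 ± 0.22. Afp read 623, 203 and 719 in AAF/PH liver. Gclm, Nqo1 and Ptgr1 were higher in the foci than in AAF/PH liver by 3.54, 3.08 and 3.13, and Car2, Gsta3 and Gpx2 did not pass, at 0.64, 0.67 and 0.76. Cish and Socs2 read 37.3, 45.3 and 40.1 and 56.2, 46.5 and 62.6 in AAF/PH liver and differed from the foci by -0.16 and -0.08, which did not pass.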

How the data were processed

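Gene expression was measured on 14 arrays of 12 rats, per the labels from 150 ng of RNA of captured, fixed tissue. The deposited table held intensity values of 28826 probe sets with a lowest value of 2.143 and a highest of 14038, which is a linear scale. The submitters' processing notes name Partek 6.6 and RMA, and no source used here gives the background correction. Log2 values had been assumed in planning, so the deposited intensity values were turned to log2, with no pseudocount and no filter on low values. Rapamycin animal 3 entered as the mean log2 value of its 3 arrays. The number of arrays limits the precision.

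Per the platform annotation, 15209 probe sets had 1 symbol, 306 several and 13311 none. The probe set with the highest mean was kept for the 494 genes with several, which left 14497 genes, and 14471 of them matched a RefSeq table of GRCr8 that was used for names and promoters. In R 4.3.3, limma 3.58.1 (lmFit and eBayes, 2-sided) fitted all 12 animals in 4 groups, with 8 residual and 6.38 prior degrees of freedom. A gene was called at a Benjamini-Hochberg adjusted p under 0.05 over all genes. Files were read with the R package data.table, version 1.17.8, and the fit was tested on simulated data. The simulation gave a gene the same spread in every animal and held no animal like rapamycin animal 3. It cannot show how the fit behaves with such an animal. Alternatives covered the animals fitted, the arrays of animal 3, scaling, dim genes, the choice of probe set, array weights, the replicate number as a block and leaving out each animal.

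Named were Gstp1, the 15 largest called rises and 15 largest called falls whose animals did not overlap between groups, up to 4 members of smallest p of each of 34 gene lists, 5 genes in each direction against AAF/PH liver, 5 in each direction by moderated t against placebo foci, where none was called, and the 8 genes in which animal 3 lay farthest from the others. Predicted genes were passed over. Other list members, Ghr, Igf1, Stat5b, Nfe2l2, Keap1, Ubd and the STAT5-type motif were chosen after their values were seen. Of 827 listed genes 727 were measured. The comparison and the lists were chosen with earlier results of these data known.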

Additional observations from a re-analysis of the deposited data

Results flagged for a closer look

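Tagln, a smooth muscle actin-binding protein, stood out because every rapamycin animal lay below the mean log2 value of normal liver and every placebo animal above it. Placebo animal 2, at 61.3, was close to that mean, and all placebo animals lay within the range of the normal livers. Its intensity was 56.9, 51.1 and 78.5 in normal liver, 46.4, 49.3 and 35.7 in rapamycin foci and 77.0, 61.3 and 78.3 in placebo foci. The log2 difference from normal liver was -0.49 ± 0.22 in rapamycin foci (adjusted p 0.178) and 0.23 ± 0.22 in placebo foci, and neither passed in limma. Rapamycin minus placebo was -0.73 (95% interval -1.21 to -0.25), at an unadjusted p of 0.00572 and an adjusted p of 0.985. Both differences share the normal livers.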

How the results depend on the processing

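The number of genes called in rapamycin foci against normal liver was 948. It was 209 when only the 6 animals compared were fitted, 555 with the replicate number as a block, and 4473 with array weights (estimated gene by gene), which kept all 948. Leaving out 1 animal gave 224 to 2055. Under the other settings it ranged from 787 to 1070. Against placebo foci the count was 0 in every setting but array weights (541) and the removal of 1 animal (0 to 3). Against AAF/PH liver it was 580, and became 204 with only the groups compared, 1159 after quantile normalization, 374 after median centring, 3102 with array weights and 295 to 2056 without 1 animal. Placebo foci against normal liver gave 1194, and 2296 with only the groups compared, 5315 with array weights and 606 to 1108 without 1 animal. Gsta4 and Txn1 turned to rises with array weights, at 0.60 and 0.48. A fit of fewer animals has fewer degrees of freedom. With only the groups compared, the count fell for rapamycin foci against normal liver and rose for placebo foci against normal liver. The median log2 standard deviation was 0.331 in rapamycin foci, 0.173 in normal liver, 0.209 in placebo foci and 0.196 in AAF/PH liver. What caused the changes under these settings was not tested. Replicate numbers did not pair the animals: deviations of same-numbered rapamycin and normal animals correlated at 0.38, -0.54 and -0.27, so the block is given once, here. Of 169 named or listed values followed against normal liver, 157 kept their direction and side of the threshold without rapamycin animal 3, 9 passed only without it and 3 only with it. The table gives no background level, so how far signal over background limits dim genes was not tested.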
